A study of Mus musculus with 14 samples.

Results

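The phagocyte NADPH oxidase and its antioxidant partners were followed here through 7 genes, picked by name with earlier results of these data known. These were CYBB, CYBA, NCF1, NCF4 and RAC2 of the oxidase, and SOD2 and CAT, which act on superoxide and hydrogen peroxide. They were 7 of the 24982 genes in the table of reads per gene, and all 7 passed the filter on low counts that left 13136 genes to be tested. The libraries were made from sorted colonic lamina propria macrophages of 5-week-old C57BL/6 mice, 1 mouse per library. Live cells were gated as CD45+, Ly6G-, CD103-, CD64+ CD11b+, MHCII+ and Ly6C-, from tissue labelled as colon and cecum. All mice carried Cdcs1, a locus that raises susceptibility to colitis, and the groups were WT (Cdcs1 alone), IL10RAKO (Cdcs1, Il10ra -/-), DKO (Cdcs1, Il10ra -/-, Ccr2 -/-) and CCR2KO (Cdcs1, Ccr2 -/-). Il10ra encodes the ligand-binding chain of the IL-10 receptor, and Ccr2 the chemokine receptor through which monocytes leave the bone marrow and enter tissue. The knockouts were germline and so not limited to macrophages, and the study describes WT littermates in its histology as heterozygous for both alleles. The study reports spontaneous colitis in IL10RAKO mice, less severe colitis in DKO mice and no histologic signs of it in WT or CCR2KO mice. Loss of Il10ra and inflamed tissue therefore cannot be told apart in comparisons with WT, and DKO and IL10RAKO also differ in severity. WT, IL10RAKO and DKO had 4 mice each in every test. WT mouse 11, which the authors left out of their normalized table without a stated reason, and the single CCR2KO mouse are given as values only.

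In resting phagocytes, the oxidase is held apart in a membrane part and a cytosolic part. CYBB (gp91phox) carries electrons from NADPH across the membrane to oxygen, and CYBA (p22phox) is the partner that stabilizes it and gives the cytosolic subunits a docking site. On activation cytosolic subunits, among them the organizer NCF1 (p47phox) and NCF4 (p40phox), which binds phagosomal phosphoinositide, move to the membrane together with the small GTPase RAC2, and superoxide is made. SOD2 turns superoxide into hydrogen peroxide in mitochondria, and CAT breaks hydrogen peroxide down, mainly in peroxisomes. The enzymes therefore sit in different compartments, and transcript levels do not measure oxidase activity.

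CYBB lies on the X chromosome (X:9435252-9487771, minus strand, GRCm38), CYBA on chromosome 8 (8:122424776-122432930, minus strand) and NCF1 on chromosome 5 (5:134220053-134229625, minus strand). NCF4 (15:78244801-78262580, plus strand) and RAC2 (15:78559167-78572783, minus strand) share chromosome 15, with 296587 bases between them. SOD2 is at 17:13006846-13040063 (plus strand) and CAT at 2:103453849-103485160 (minus strand). The exons of NCF1 share 408 bases with Gtf2ird2 on the opposite strand, and the sources used here do not say whether reads were counted by strand. GTF2IRD2 itself had between 52 and 289 reads in any library, and NCF1 at least 3758. RefSeq promoters were matched for 5 of the 7 genes, while NCF4 and RAC2 had no entry and are only named. The 250 bases before the RefSeq start (GRCm38.p6, 5′ to 3′ on the gene's strand) are shown for CYBB, CYBA, NCF1 and SOD2 because these genes were higher in both Il10ra-deficient genotypes. Capitals mark matches to 7 motifs searched on both strands.
CYBB (chrX:9469325-9469574, minus strand): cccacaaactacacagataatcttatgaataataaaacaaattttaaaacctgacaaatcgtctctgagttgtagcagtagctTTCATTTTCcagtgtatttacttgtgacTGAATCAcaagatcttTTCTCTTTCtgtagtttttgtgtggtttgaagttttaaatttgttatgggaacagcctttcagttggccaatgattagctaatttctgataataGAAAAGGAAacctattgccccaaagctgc
CYBA (chr8:122432941-122433190, minus strand): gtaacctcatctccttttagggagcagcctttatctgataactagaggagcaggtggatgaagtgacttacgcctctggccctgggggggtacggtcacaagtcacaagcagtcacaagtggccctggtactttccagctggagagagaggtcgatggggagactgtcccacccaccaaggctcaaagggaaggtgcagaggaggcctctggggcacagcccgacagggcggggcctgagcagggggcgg
NCF1 (chr5:134229626-134229875, minus strand): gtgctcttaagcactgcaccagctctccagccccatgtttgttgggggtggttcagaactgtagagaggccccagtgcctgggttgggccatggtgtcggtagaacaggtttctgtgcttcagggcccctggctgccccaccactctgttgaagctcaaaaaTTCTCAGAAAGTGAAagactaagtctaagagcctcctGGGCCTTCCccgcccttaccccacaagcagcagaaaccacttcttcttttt
SOD2 (chr17:13007589-13007838, plus strand): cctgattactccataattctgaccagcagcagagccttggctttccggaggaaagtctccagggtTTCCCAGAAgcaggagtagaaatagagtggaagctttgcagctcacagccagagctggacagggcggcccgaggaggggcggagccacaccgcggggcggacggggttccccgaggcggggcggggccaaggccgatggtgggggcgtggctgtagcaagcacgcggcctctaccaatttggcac
The motifs were GAGGAAG (the ETS core bound by PU.1), TTCNNNGAA (GAS, the gamma-activated site), GAAANNGAA (an IRF-type repeat), GGGNNTTCC and GGNNTTTCC (forms of the kappaB site), TGACNNNGC (the antioxidant response core) and TGANTCA (AP-1). The CYBB window held 3 IRF-type repeats, which begin 167, 123 and 29 bases before the start, and an AP-1 match at 139. The NCF1 window held GAS at 88, an overlapping IRF-type repeat at 82 and a GGGNNTTCC match at 51. The SOD2 window held GAS at 185, and the windows of CYBA and CAT held none of the 7. Among 32851 mouse promoter windows of the same length, GAS was found in 7.02%, the IRF-type repeat in 7.13%, GGGNNTTCC in 4.98%, GGNNTTTCC in 4.93%, AP-1 in 6.75%, the antioxidant response core in 10.2% and the ETS core in 10.6%. The RefSeq start of CYBB lies inside the gene as GENCODE draws it, and the SOD2 window includes 22 bases of GENCODE exon. A match of letters is a description of the window and shows no binding.

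The 12 libraries of the tests held between 13085287 and 21216468 assigned reads. The targeted genes followed the labels: IL10RA stood at 3.41 to 11.2 CPM (read counts scaled to library size with TMM factors, which offset differences in composition) in the 8 libraries labelled IL10RAKO or DKO and at 217 to 380 in WT, and CCR2 at 3.92 to 6.68 in DKO. Macrophage markers were present throughout. Their summed level over 10 genes was 25776 to 31627 CPM in WT, below all 4 IL10RAKO libraries (34751 to 47681), and 27602 to 37342 in DKO. Most of it came from the MHCII genes H2-AB1 and H2-AA. In WT, IL10RAKO and DKO, H2-AB1 had means of 15868, 24213 and 20216 CPM and H2-AA of 6865, 9373 and 7352. Of the 10, FCGR1 and H2-AB1 were higher in IL10RAKO, and in DKO MERTK was higher and ADGRE1 and CX3CR1 were lower. Among 12 neutrophil markers, 6 of the 8 that could be tested were higher in IL10RAKO than in WT and 7 of 8 in DKO. Their summed level was 76.1 to 127 CPM in WT, against 146 to 350 in IL10RAKO and 227 to 300 in DKO, and most of it was CSF3R, the G-CSF receptor. S100A9 was at 0 in all WT libraries and at 0.506 to 40.8 CPM in the other 8, MPO and LY6G stayed under 1 CPM, and MPO, ELANE, CAMP and LY6G were too low to be tested. All 6 fibroblast markers were lower in both genotypes, with sums of 294 to 577 CPM in WT, against 14.99 to 53.7 in IL10RAKO and 16.1 to 67.0 in DKO. Of 5 dendritic cell markers, 3 were higher in IL10RAKO and 2 in DKO. KIT, of 4 tested eosinophil and mast cell markers, was higher in both, and that list's sums were 13.8 to 36.9 CPM in WT, 74.0 or more in IL10RAKO and 77.6 or more in DKO. Of 8 tested T and NK cell markers, CD4 was lower in both and NKG7 higher in DKO. That list's median log2 fold change was 0.54 and 0.42, and the study describes CD4 also on mature intestinal macrophages. In DKO, MUC2 and PECAM1 were lower, 1 each of 6 epithelial and 4 endothelial markers. None of 6 B and plasma cell markers passed (edgeR). Of 6 monocyte markers, 2 were higher (LY6C2 and PLAC8) and 1 lower (F13A1) in each. Beside the counts of these lists, 8.7% of all tested genes passed as higher and 7.1% as lower in IL10RAKO. In DKO the shares were 9.23% and 9.22%. No tested marker passed between DKO and IL10RAKO. The part of the cells that these lists mark in the results below was not tested beyond the fits with a marker covariate given there. In bulk RNA from sorted cells, a change in the mix of cells and a change in RNA per cell cannot be told apart.

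**Figure D1:**
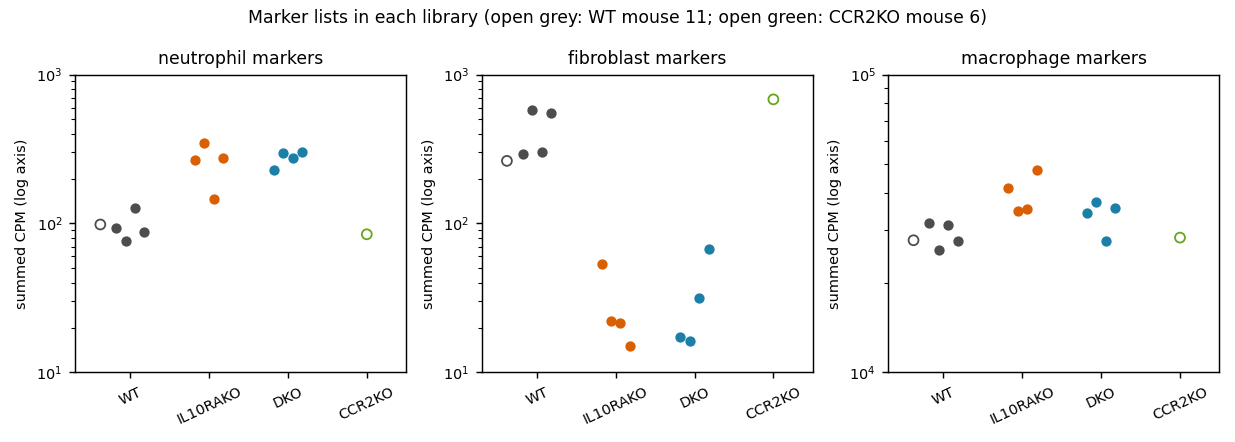
Summed CPM of the neutrophil, fibroblast and macrophage marker lists in each library (log axes), by genotype, with 1 point per mouse. The neutrophil and fibroblast sums of the 4 tested WT libraries do not overlap those of IL10RAKO or DKO. Their macrophage sums, up to 31627 CPM and mostly H2-AB1 and H2-AA, lie under those of IL10RAKO, from 34751.

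Against WT, 5 of the 7 genes were higher in IL10RAKO (CYBB, CYBA, NCF1, NCF4 and SOD2) and none was lower. In that comparison 15.8% of all tested genes passed an adjusted p of 0.05, 8.7% as higher and 7.1% as lower. In DKO against WT, 4 of the 7 were higher (CYBB, CYBA, NCF1 and SOD2) and none lower, where 18.5% of all tested genes passed, 9.23% as higher and 9.22% as lower. The median log2 fold change of the 7 genes was 0.90 and 1.02 in these comparisons, and that of all tested genes −0.07 and −0.06. Between DKO and IL10RAKO, none of the 7 passed, where 0.0457% of all genes did (6 of 13136 by edgeR, with 388 at an unadjusted p under 0.05 and 24 called by DESeq2), and the median of the 7 was −0.02. IL10RAKO and DKO were each set against the same 4 WT mice, so the first 2 comparisons are not independent. All tests were edgeR quasi-likelihood tests with Benjamini-Hochberg adjustment over the 13136 genes, and n was 4 mice per genotype.

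**Figure D2:**
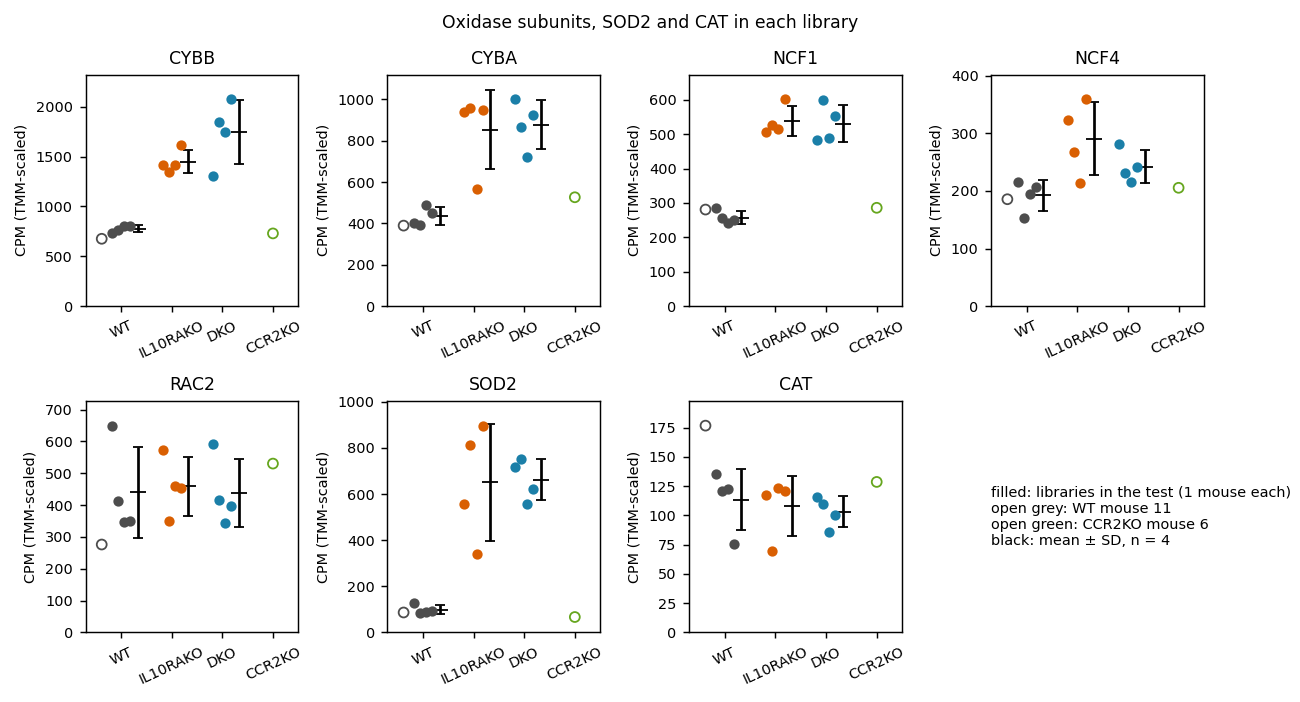
CPM of each gene in each library on axes that start at 0, with 1 point per mouse, and the mean ± SD of 4 mice in black. CYBB, CYBA, NCF1 and SOD2 in IL10RAKO and DKO lie above every WT library, whereas RAC2 and CAT overlap across genotypes.

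The membrane pair, CYBB and CYBA, was 1.87- to 2.25-fold more abundant in macrophages without Il10ra, with Ccr2 present or missing. CYBB stood at 732, 761, 807 and 800 CPM in WT, at 1421, 1343, 1416 and 1617 in IL10RAKO, and at 1309, 1845, 1743 and 2075 in DKO. Every Il10ra-deficient library lay above every WT library, and the spread was widest in DKO. The log2 fold change was 0.90 (SE 0.153, adjusted p = 0.00102) in IL10RAKO and 1.17 (SE 0.153, adjusted p = 1.13e-04) in DKO. CYBA stood at 404, 393, 489 and 451 CPM in WT, at 941, 960, 567 and 947 in IL10RAKO, and at 1000, 866, 723 and 923 in DKO. IL10RAKO mouse 7, at 567, lay well under the other 3 of its genotype but still above WT. The log2 fold change of CYBA was 0.98 (SE 0.182, adjusted p = 0.00208) in IL10RAKO and 1.02 (SE 0.182, adjusted p = 0.00135) in DKO. CYBC1, the chaperone that the pair needs for its maturation, had means of 85.0, 110 and 104 CPM in WT, IL10RAKO and DKO and did not pass in either comparison (adjusted p = 0.213 and 0.326). For single genes, an exact permutation test of the 70 ways to relabel 4 mice against 4 cannot go below p = 0.0286 (two-sided). CYBB, CYBA, NCF1 and SOD2 reached that value against WT in both genotypes. NCF4 did so in DKO (exact p = 0.0286) and not in IL10RAKO (exact p = 0.0571), the reverse of its edgeR calls. Both outcomes rest on near ties with WT mouse 4, at 215.045 CPM for NCF4. DKO mouse 12 was at 215.071 and IL10RAKO mouse 7 at 214.156.

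Of the cytosolic subunits, NCF1 was higher in both Il10ra-deficient genotypes and NCF4 passed the test in IL10RAKO. NCF1, the organizer, stood at 284, 255, 240 and 250 CPM in WT, at 507, 526, 515 and 601 in IL10RAKO, and at 484, 598, 489 and 552 in DKO. Its groups were widely apart, with log2 fold changes of 1.06 (SE 0.133, adjusted p = 9.6e-05) in IL10RAKO and 1.04 (SE 0.133, adjusted p = 9.11e-05) in DKO. NCF4 stood at 215, 153, 195 and 206 CPM in WT, at 323, 268, 214 and 359 in IL10RAKO, and at 281, 231, 215 and 242 in DKO. IL10RAKO mouse 7 fell among the WT values, and the lowest DKO library was level with the highest of WT. NCF4 passed in IL10RAKO (log2 fold change 0.60, SE 0.178, adjusted p = 0.0341) but not in DKO (0.33, SE 0.177, adjusted p = 0.217), and the difference between those genotypes did not pass either (−0.26, 95% interval −0.64 to 0.12). Its call in IL10RAKO was lost without IL10RAKO mouse 1 or mouse 8, without WT mouse 5, 10 or 13, with library totals in place of TMM, with only the 2 genotypes in the fit and with libraries scaled to the macrophage markers.

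RAC2, the GTPase of the complex, ranged as widely within WT as across all genotypes. It stood at 649, 412, 347 and 350 CPM in WT, at 573, 350, 459 and 452 in IL10RAKO, and at 592, 417, 344 and 397 in DKO. In each genotype 1 mouse lay above the rest, and the groups overlapped throughout. The log2 fold change was 0.06 (95% interval −0.44 to 0.56, adjusted p = 0.897) in IL10RAKO and −0.01 (−0.50 to 0.49, adjusted p = 0.986) in DKO on the log2 scale. Changes within these intervals were not detected and remain possible at this spread. RAC1, the ubiquitous relative that can serve in its place, had means of 491 ± 75.6, 573 ± 83.1 and 621 ± 93.2 CPM (SD, n = 4) and did not pass (adjusted p = 0.41 and 0.183).

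**Figure D3:**
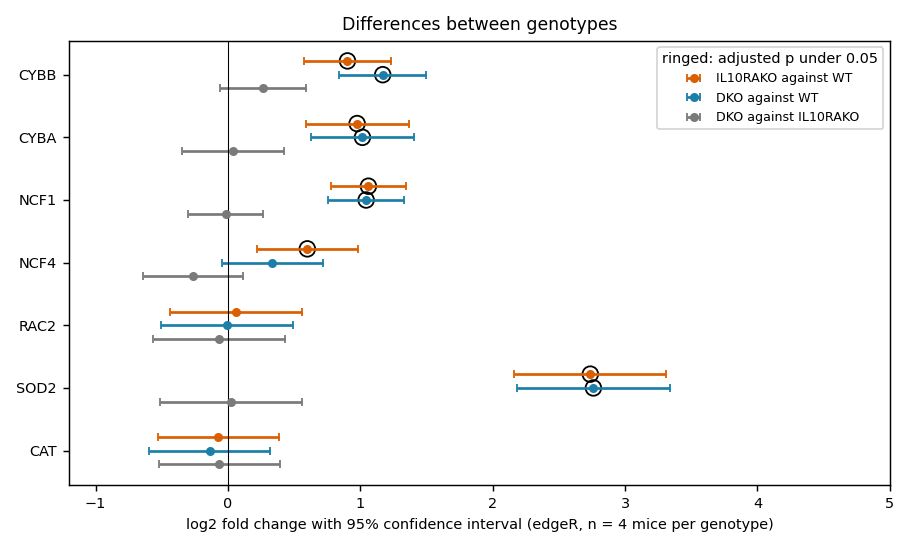
Log2 fold change of the 7 genes with 95% confidence intervals in 3 comparisons (edgeR, n = 4 mice per genotype), with a ring around estimates that passed an adjusted p of 0.05. The intervals of DKO against IL10RAKO all include 0, and those of SOD2 against WT begin above 2.

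Of the 7 genes, SOD2 had the largest change. It stood at 126, 82.9, 90.4 and 91.6 CPM in WT, at 556, 812, 341 and 897 in IL10RAKO, and at 715, 753, 556 and 623 in DKO. The lowest Il10ra-deficient library, again IL10RAKO mouse 7, had more than any WT library, and the IL10RAKO values spread more than those of DKO. SOD2 was 6.67-fold higher in IL10RAKO (log2 fold change 2.74, SE 0.269, adjusted p = 1.02e-05) and 6.78-fold higher in DKO (2.76, SE 0.269, adjusted p = 8.97e-06). By p it stood at rank 79 and rank 83 of the 13136 genes. CAT did not follow it. CAT stood at 135, 120, 122 and 75.6 CPM in WT, at 117, 69.5, 124 and 121 in IL10RAKO, and at 116, 110, 85.5 and 100 in DKO. The 3 groups overlapped, with 1 low mouse each in WT and IL10RAKO, and the log2 fold change was −0.07 (95% interval −0.53 to 0.38, adjusted p = 0.858) in IL10RAKO and −0.14 (−0.60 to 0.32, adjusted p = 0.705) in DKO. Per kilobase of exon, the ratio of SOD2 to CAT was 0.180 to 0.316 in WT, against 0.719 to 3.05 in IL10RAKO and 1.61 to 1.79 in DKO, with no overlap between WT and the other genotypes.

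Groups that did not overlap against WT were found for 4 of the 7 genes in IL10RAKO (CYBB, CYBA, NCF1 and SOD2) and for 5 of 7 in DKO (these and NCF4), where 18.2% and 22.2% of all tested genes did so. For NCF4 this was a near tie, with 215.071 CPM in DKO mouse 12 against 215.045 in WT mouse 4. Between DKO and IL10RAKO all 7 genes overlapped, where 2.41% of all genes did not. The 95% intervals of that difference were −0.06 to 0.59 for CYBB, −0.35 to 0.43 for CYBA, −0.30 to 0.27 for NCF1, −0.56 to 0.43 for RAC2, −0.52 to 0.56 for SOD2 and −0.52 to 0.39 for CAT on the log2 scale. The loss of Ccr2 on top of Il10ra loss therefore gave no detected change in any of the 7, with room for changes of that size. With the mean log2 level of the fibroblast markers as a covariate, none of the 7 passed against WT in either genotype, and 29 and 61 of all genes did. With the neutrophil markers as the covariate, 2 of 7 passed in IL10RAKO (NCF1 and SOD2) and 0 in DKO, and 228 and 20 of all genes did. Both covariates separate WT from the other genotypes, so these fits cannot tell the markers from the genotype. The estimates with the fibroblast covariate were 1.16 and 1.41 for CYBB, 0.96 and 1.00 for CYBA, 0.86 and 0.85 for NCF1 and 1.82 and 1.88 for SOD2 (log2 fold change in IL10RAKO and DKO). With the neutrophil covariate they were 0.95 and 1.24 for CYBB, 0.57 and 0.37 for CYBA, 1.06 and 1.04 for NCF1 and 2.00 and 1.62 for SOD2. The estimates for NCF4 were 0.43 and 0.17 with the fibroblast covariate and 0.43 and 0.05 with the neutrophil covariate.

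Levels of different genes were compared per kilobase of GENCODE exon, which does not allow for the isoform in use. In WT, CYBA was highest at 418 ± 42.7 CPM per kilobase (SD, n = 4), followed by RAC2 at 142 ± 46.1, CYBB at 133 ± 6.08, NCF4 at 95.2 ± 13.6, NCF1 at 70.3 ± 5.16, CAT at 43.4 ± 9.92 and SOD2 at 9.76 ± 1.91. The neighbours RAC2 and CYBB overlapped, as did NCF4 and NCF1, and the other neighbours did not. In IL10RAKO the order was CYBA (822 ± 184), CYBB (249 ± 20.2), RAC2 (148 ± 29.5), NCF1 (147 ± 11.9), NCF4 (144 ± 31.5), SOD2 (65.1 ± 25.3) and CAT (41.2 ± 9.81). There RAC2, NCF1 and NCF4 could not be ranked, and SOD2 overlapped CAT. In DKO it was CYBA (845 ± 113), CYBB (300 ± 55.3), NCF1 (145 ± 14.9), RAC2 (141 ± 34.6), NCF4 (120 ± 14.0), SOD2 (66.1 ± 8.91) and CAT (39.4 ± 5.07), and here NCF1, RAC2 and NCF4 overlapped and could not be ranked, while SOD2 lay above CAT in every library. SOD2 thus moved from the last place in WT to the place before CAT. The ratio of CYBB to CYBA per kilobase was 0.295 to 0.347 in WT, against 0.250 to 0.446 in IL10RAKO and 0.234 to 0.431 in DKO, and overlapped across genotypes.

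**Figure D4:**
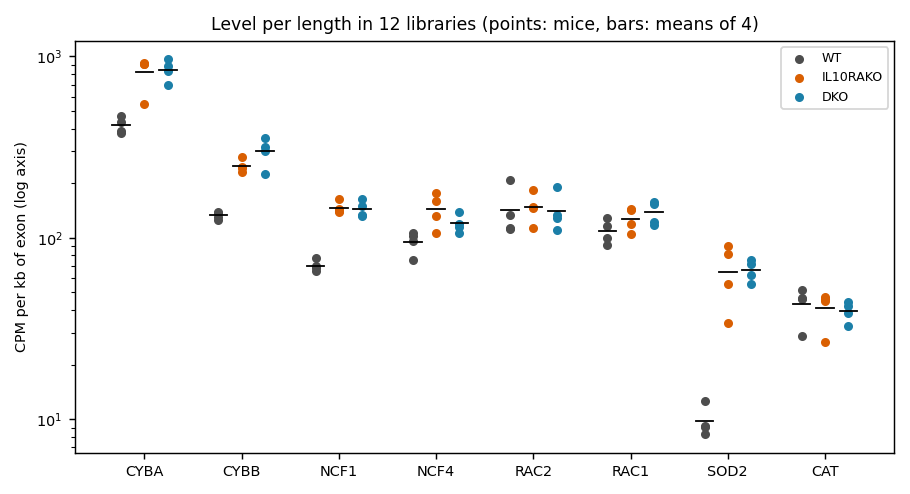
CPM per kilobase of exon for the 7 genes and RAC1 in 12 libraries (log axis), with points for mice and bars for means of 4. CYBA is the highest of these genes in every genotype, and SOD2 rises from 9.76 in WT to 65.1 and 66.1.

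Of 16 further genes that assemble or activate the oxidase, 2 were higher in IL10RAKO (PAK1 and PRKCD) and none lower. In DKO 4 were higher (HVCN1, PAK1, ARHGDIA and ARHGDIB) and 1 was lower, TIAM1. None of the 16 passed between DKO and IL10RAKO. The list's median log2 fold change was 0.19 and 0.25, beside −0.07 and −0.06 for all genes. Beside the counts of this list and of the other oxidant sources below, 15.8% of all tested genes passed in IL10RAKO and 18.5% in DKO. PAK1, a kinase that phosphorylates NCF1, had a log2 fold change of 0.81 (adjusted p = 0.0212) in IL10RAKO and 0.66 (adjusted p = 0.0476) in DKO. PRKCD, protein kinase C delta, which also phosphorylates NCF1, was at 0.48 (adjusted p = 0.0497) and 0.42 (adjusted p = 0.076), and its call in IL10RAKO was lost in 19 of 25 alternatives. HVCN1, the proton channel that balances the charge moved by the oxidase, was at 0.86 (adjusted p = 0.0146) in DKO. ARHGDIA and ARHGDIB, which hold RAC proteins inactive in the cytosol, were at 0.56 (adjusted p = 0.0281) and 0.67 (adjusted p = 0.0416) in DKO, and TIAM1, an exchange factor that loads RAC with GTP, was at −1.07 (adjusted p = 0.0389). Means in WT, IL10RAKO and DKO were 272, 371 and 495 CPM for HVCN1 and 707, 926 and 1041 for ARHGDIA. For ARHGDIB they were 542, 854 and 862, and for TIAM1 13.1, 6.72 and 6.26. Of 25 alternatives, the call of PAK1 was lost in 8 in IL10RAKO and 13 in DKO, and in DKO those of ARHGDIA, ARHGDIB, TIAM1 and HVCN1 were lost in 10, 11, 15 and 3. Leaving out a single mouse ended each of these calls at least once, except that of HVCN1. Of 6 tested genes of other NOX enzymes and oxidant sources, DUOXA2, the maturation factor of DUOX2, was the 1 that passed, at a low level of 0 to 0.0828 CPM in WT, against 0 to 2.99 in IL10RAKO and 3.15 to 4.99 in DKO. DUOX2 and NOX1 themselves stayed under 4 CPM in the 12 libraries and did not pass.

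Genes that remove superoxide and peroxide moved in both directions. Among all tested genes, 8.7% and 9.23% passed as higher in IL10RAKO and DKO, and 7.1% and 9.22% as lower. Of 20 tested, other than SOD2 and CAT, 6 were higher in IL10RAKO and the same 6 in DKO: PRDX1, PRDX5, TXN1, TXNRD1, SRXN1 and GSR. These are peroxiredoxins, the thioredoxin pair that recharges them, sulfiredoxin, which repairs overoxidized peroxiredoxin, and glutathione reductase. PRDX5 had means of 220 ± 26.7, 1027 ± 348 and 1026 ± 91.7 CPM in the 3 genotypes (SD, n = 4; WT, IL10RAKO and DKO), with log2 fold changes of 2.22 (adjusted p = 2.16e-05 and 2.04e-05). TXNRD1 was at 2.21 and 2.25 (adjusted p = 6.05e-06 and 4.55e-06), GSR at 2.08 and 2.44 (4.92e-05 and 1.13e-05), SRXN1 at 2.19 and 2.32 (1.41e-04 and 7.69e-05) and PRDX1 at 0.68 and 1.06 (0.00787 and 2.93e-04). Lower in both were SOD3, the extracellular dismutase, at −2.24 and −2.06 (adjusted p = 3.44e-04 and 5.24e-04), and GPX3, the plasma glutathione peroxidase, at −1.57 and −1.96 (adjusted p = 0.00182 and 3.27e-04). The fibroblast markers fell in the same libraries, and their part in the values of SOD3 and GPX3 was not tested apart from the covariate fit, in which neither passed. GPX8, TXNRD2 and TXNRD3 were also lower in DKO, and these calls did not hold in 7 of 24, 9 of 25 and 15 of 25 alternatives. None of the 20 passed between DKO and IL10RAKO. GPX1, the main cytosolic glutathione peroxidase, had means of 918, 1078 and 904 CPM and SOD1, the cytosolic dismutase, of 23.1, 23.4 and 17.4 in WT, IL10RAKO and DKO, and neither passed.

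**Figure D5:**
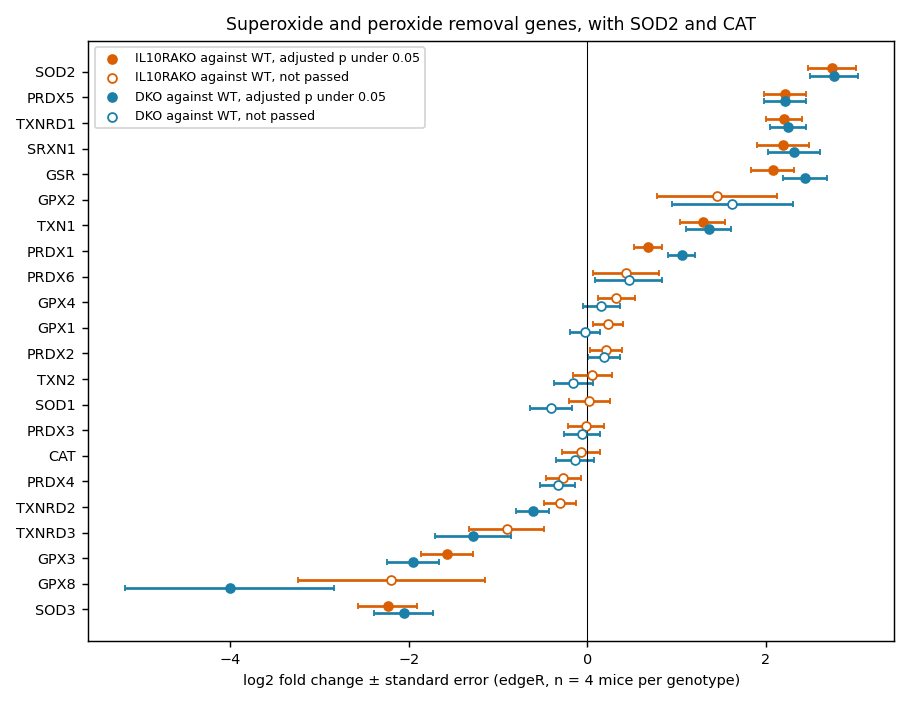
Log2 fold change ± standard error against WT for SOD2, CAT and 20 further genes of superoxide and peroxide removal, in IL10RAKO and DKO (edgeR, n = 4 mice per genotype), filled where the adjusted p was under 0.05. SOD2 heads the list at 2.74 and 2.76, CAT lies near 0, and SOD3 and GPX3 lie below −1.5 in both.

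Of 10 genes of glutathione supply and the NRF2 program, NFE2L2, which encodes NRF2, and SLC7A11, the cystine importer, were higher in both genotypes, and TXNIP, an inhibitor of thioredoxin, was lower in both. SLC7A11 was at log2 fold changes of 3.60 and 4.16 (adjusted p = 9.33e-06 and 3.08e-06), with means of 19.95 ± 8.87, 241 ± 101 and 356 ± 60.6 CPM in WT, IL10RAKO and DKO (SD, n = 4). NFE2L2 was at 1.10 and 1.07 (adjusted p = 4.21e-04 and 4.65e-04) and TXNIP at −0.87 and −1.47 (adjusted p = 0.0246 and 7.77e-04). In DKO, GCLM, a subunit of the enzyme that makes the glutathione precursor, was also higher (0.74, adjusted p = 0.0247). NQO1, a quinone reductase often used as an NRF2 target, was lower there (−2.19, adjusted p = 0.0302). Means in WT, IL10RAKO and DKO were 22.2, 27.9 and 37.0 CPM for GCLM and 4.25, 1.13 and 0.928 for NQO1. The calls of GCLM and NQO1 were lost in 6 and 11 of 25 alternatives, and that of TXNIP in IL10RAKO in 6. Of 26 peroxisome genes, the compartment of CAT, ACAA1A passed in IL10RAKO (0.75, adjusted p = 0.00915), and in DKO 2 passed as higher (ACAA1A and PEX16) and 2 as lower (EHHADH and ABCD2). The peroxisome list's median was 0.09 and 0.01. No gene of the 10 or of the 26 passed between DKO and IL10RAKO. Beside the counts of both lists, 15.8% of all tested genes passed in IL10RAKO and 18.5% in DKO.

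Of 8 transcription factors known to act on oxidase genes or SOD2, 4 were higher in IL10RAKO (IRF1, IRF8, CEBPB and SPI1) and 4 in DKO (IRF1, IRF8, CEBPB and RELA). IRF1, which interferons induce, was at log2 fold changes of 1.75 and 1.74 (adjusted p = 9.93e-05 and 8.9e-05) and IRF8, which with SPI1 acts on CYBB in myeloid cells, at 0.81 and 0.87 (adjusted p = 0.00219 and 0.00109). CEBPB was at 1.24 and 1.27 (adjusted p = 0.00594 and 0.00459). SPI1, which encodes PU.1, was at 0.59 (adjusted p = 0.0411) in IL10RAKO and 0.37 (adjusted p = 0.187) in DKO, and RELA at 0.50 (adjusted p = 0.0497) in DKO. The calls of SPI1 and RELA were lost in 14 and 17 of 25 alternatives. None of the 8 passed between DKO and IL10RAKO. Beside the counts of this list, 8.7% and 9.23% of all tested genes passed as higher in IL10RAKO and DKO.

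Across the 12 libraries, likeness was measured by Pearson r of log2 CPM and is given as a description, since libraries share genotypes. SOD2 and NCF1 had r = 0.972, SOD2 and CYBA 0.951, and CYBB and NCF1 0.94. With genotype means removed, these values were 0.558, 0.715 and 0.489. On that scale r was also 0.757 for CYBA and NCF4 and 0.71 for NCF4 and SOD2, and CYBA, NCF4 and SOD2 were lowest in IL10RAKO mouse 7 among the mice of that genotype. Within IL10RAKO, that mouse also had the lowest sums of neutrophil (146 CPM), monocyte (384) and epithelial (16.9) markers. Its dendritic cell (1857), T and NK cell (144), B and plasma cell (1079) and endothelial (109) sums were the highest. The part of any of these cells in its values was not tested. CYBB and CYBA, which form 1 heterodimer, had r = −0.04 with genotype means removed. RAC2 and CAT went together (0.661 over the libraries and 0.682 with genotype removed). The genes most like each were MMP14, PPT2 and HK3 for CYBB (r = 0.986, 0.98 and 0.975), PRDX5, PSME2 and TSPO for CYBA (0.98, 0.979 and 0.978) and CD80, CXCL9 and IL1RN for NCF1 (0.984, 0.984 and 0.983). For SOD2 they were NRG1, PDCD1LG2 and ARG2 (0.992, 0.991 and 0.99), for NCF4 SCAND1, BSCL2 and TMED10 (0.954, 0.946 and 0.939), for RAC2 SASH3, CNN2 and POLD2 (0.974, 0.96 and 0.96) and for CAT PXMP2, SCAMP2 and EXOC3 (0.924, 0.886 and 0.881).

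The single CCR2KO library (mouse 6), which has no replicate, stood at 729 CPM for CYBB, 527 for CYBA, 286 for NCF1, 206 for NCF4, 530 for RAC2, 66.6 for SOD2 and 129 for CAT. CYBB and SOD2 lay under the lowest of the 4 WT libraries, CYBA and NCF1 above the highest, and NCF4, RAC2 and CAT within their range. All of CYBB, CYBA, NCF1 and SOD2 lay under every IL10RAKO and DKO library. WT mouse 11 stood at 675 CPM for CYBB, 389 for CYBA, 281 for NCF1, 186 for NCF4, 276 for RAC2, 86.3 for SOD2 and 177 for CAT. Its epithelial marker sum was 2585 CPM, against 20.5 to 951 in the 4 tested WT libraries. With mouse 11 in the fit, the same 5 and 4 genes were called.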

How the data were processed

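RNA of Ly6C- colonic macrophages, 1 mouse per library, was amplified with SmartSeq v4 and sequenced in pairs. Per the labels, the authors used bcl2fastq 2.20, STAR 2.5.1b on mm10 and edgeR 3.34.0. The deposited table holds raw read counts per gene for 14 libraries. A second deposited table holds the authors' edgeR pseudocounts (unit: score) for 12. Which annotation was used, whether counting was stranded and how reads with several matches were treated are not given in the sources used here. No column of per-sample values was left out (0). Assigned reads ran from 13085287 to 21216468 in the 12 libraries tested. The floor of 3 reads was 0.124 to 0.211 CPM.

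Counts of 4 WT, 4 IL10RAKO and 4 DKO libraries were fitted together with edgeR 4.0.16 (glmQLFit and glmQLFTest, TMM, filterByExpr with a minimum count of 10) in R 4.3.3, and p-values were adjusted over 13136 genes. CPM used TMM-scaled totals, and log2 CPM a prior count of 2. No 2 libraries of a genotype were duplicates (chi-square per degree of freedom of at least 30.0). The script was tested on simulated data. The labels give no batch, litter or sex. The design follows the study's tool, but its exact model is not stated. Alternatives were DESeq2 1.42.0, limma 3.58.1 on the pseudocounts, other scalings, filters and deviances, marker covariates, other sets of libraries and the removal of each mouse. The scaling to macrophage markers was chosen after seeing the data. Coordinates are from GENCODE (GRCm38), promoters from RefSeq (GRCm38.p6).

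The 7 genes, the lists and the motifs were chosen with earlier results of these data known. Named were the 7 genes and, from each list, up to 6 genes with the smallest p among those that passed, with RAC1, CYBC1, NOX1, DUOX2, SOD1, GPX1 and NFE2L2 in any case, and the 3 genes most like each of the 7. Other names complete a count and were picked with their values known. Some genes of the lists are not reported here.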

Additional observations from a re-analysis of the deposited data

Results flagged for a closer look

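In groups of 4 or 5 mice, 28 in all, 3 had a library that stood apart by Dixon's test at its 95% critical value, where chance alone gives about 5% of groups. WT was examined with and without mouse 11, so the groups overlap and are not independent. CYBA in IL10RAKO mouse 7 was at 9.15 log2 CPM, against 9.88 to 9.91 in the other 3. CAT in IL10RAKO mouse 2 was at 6.12, against 6.87 to 6.95. SOD2 in WT mouse 4 was at 6.98, against 6.38 to 6.52 in the other 4 WT mice, mouse 11 included. Without mouse 7, CYBA passed against WT as before.

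Among the libraries outside the tests, the CCR2KO mouse was above the 4 WT mice for CYBA, at 527 CPM against 393 to 489, and for NCF1, at 286 against 240 to 284. WT mouse 11 was above them for CAT, at 177 against 75.6 to 135. Its library had the fewest assigned reads (12153000) and detected genes (11670) of the 14. The epithelial marker sum of mouse 11 was 2585 CPM, against 20.5 to 951 in the 4 WT mice.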

How the results depend on the processing

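CYBB, CYBA, NCF1 and SOD2 passed against WT in both genotypes under every alternative but the marker covariates. With the fibroblast covariate 0 of the 7 genes passed in either genotype (29 and 61 of all genes). With the neutrophil covariate 2 passed in IL10RAKO and 0 in DKO (228 and 20 of all genes, and 3 between DKO and IL10RAKO). Without each mouse in turn, 4 to 5 of the 7 passed in IL10RAKO, 4 in DKO and 0 between them, and of all genes 1485 to 2554, 1691 to 2995 and 4 to 10. The 10 came without IL10RAKO mouse 2, and 2554 and 2995 without WT mouse 4. DESeq2 called 24 genes between DKO and IL10RAKO. Library totals moved the median of all genes to −0.38 and −0.32 and the share of calls that were higher from 55.1% and 50.0% to 23.8% and 25.9%. Scaling to macrophage markers, chosen after the data were seen, left 4 and 4 of the 7. No paired analysis was possible because the genotypes are different mice and the labels give no replicate numbers that they share.

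Estimates changed sign for genes that had not passed, and for GPX8 and TXNRD3, which had passed in DKO. In IL10RAKO against WT, RAC2 was at −0.25 with library totals, −0.13 with the fibroblast covariate, −0.0292 with marker scaling and −0.059 to 0.32 without single mice. RAC1 was at −0.10 with library totals. CAT was at 0.53 with the neutrophil covariate and −0.22 to 0.10 without single mice. In DKO against WT, RAC2 was at 0.017 with no filter, 0.0046 with 2 genotypes, 0.11 with mouse 11, 0.51 with the neutrophil covariate, 0.12 with marker scaling, 0.019 with limma and −0.18 to 0.25 without single mice. The neutrophil covariate gave 0.89 for CAT, 0.74 for GPX8 and 0.12 for TXNRD3. In DKO against IL10RAKO, the neutrophil covariate gave −0.19 for CYBA, 0.14 for RAC2, −0.37 for SOD2 and 0.36 for CAT, and marker scaling 0.13 for NCF1, 0.14 for RAC2 and 0.14 for CAT. NCF1 was at 0.046 with library totals. Without single mice the ranges were −0.10 to 0.12 for CYBA, −0.079 to 0.042 for NCF1, −0.25 to 0.060 for RAC2, −0.17 to 0.22 for SOD2 and −0.23 to 0.024 for CAT. The cause of these shifts was not tested.

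With 4 mice per genotype, the 95% intervals of DKO against IL10RAKO were at their narrowest for NCF1, at −0.30 to 0.27. The intervals are per gene and not adjusted for the 13136 genes tested. Smaller changes could not be detected, and larger ones could also miss the adjusted threshold.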
